A study of Mus musculus with 60 samples.

Results

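The expression of 10 genes that mark astrocytes was followed through mouse prefrontal cortex: the glutamate transporters Slc1a2 and Slc1a3, glutamine synthetase Glul, the connexins Gja1 and Gjb6, the water channel Aqp4, the filament protein Gfap, the enzymes Aldh1l1 and Aldoc, and the transcription factor Sox9. They were chosen by name and not by a cut on their values, but with earlier results of these data known. Each gene ID of the table was matched to its symbol in the GRCm38 annotation. All 10 members were found among the 18088 genes of the table, 1 entry each, and all 10 passed the filter on low values that left 17804 genes for testing.

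Astrocytes clear glutamate from the synaptic cleft through the transporters GLT1 (Slc1a2) and GLAST (Slc1a3), turn it into glutamine with glutamine synthetase, and return the glutamine to neurons. They are joined to each other by gap junctions built from the connexins Cx43 (Gja1) and Cx30 (Gjb6), and their endfeet cover blood vessels with the water channel aquaporin-4. In rodent cortex Gfap is low in resting grey matter astrocytes and high in those of white matter and of the brain surface, while Aldh1l1 is used as a marker of astrocytes in general.

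The mice were C57BL/6J, of genotype HT (heterozygous) or WT (wild type) for Trip12, a ubiquitin ligase gene. Their dams' milk carried vehicle, fluoxetine (a selective serotonin reuptake inhibitor) or lithium (a mood stabiliser) from postnatal day 3 to 24, a treatment of 3 weeks, and prefrontal cortex was taken on postnatal day 25. The 60 messenger RNA libraries form 12 groups of 5: HT vehicle, HT fluoxetine, HT lithium, WT vehicle, WT fluoxetine and WT lithium, each in females and in males. The labels say neither what the Trip12 allele is, nor what the vehicle or the doses were, nor which pups shared a dam, so p-values measure only the spread between these samples, part of which may be technical. Trip12 itself was higher in libraries labelled HT than in WT, with a log2 fold change over all treatments of 0.11 ± 0.02 (SE, 28 of 30 libraries higher, limma adjusted p = 0.0014). HT and WT below stand for the libraries so labelled.

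Each library held 25.1 to 36.6 M (mega, the SI prefix) recovered reads, and depth moved with treatment: 26.6 to 31.0 M under vehicle, 32.7 to 36.6 M under fluoxetine and 25.1 to 35.9 M under lithium. In females every lithium library (32.1 to 35.9 M) was deeper than every vehicle library (26.6 to 31.0 M). In males the depths overlapped (25.1 to 33.5 M and 26.7 to 30.3 M). A sex difference in the response to lithium is therefore confounded with depth. Marker genes of striatum and olfactory bulb, regions next to the prefrontal cortex, varied widely between libraries. The summed normalized count of 17 striatal markers ran from 10628 to 30612 in vehicle libraries and from 11464 to 15427 in lithium libraries. The 12 olfactory bulb markers summed to 6249 to 29046 in vehicle, 5975 to 29229 in fluoxetine and 5022 to 29696 in lithium libraries. In bulk tissue, fewer cells of a type and less RNA per cell cannot be told apart.

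The 10 genes spanned 2 orders of magnitude in level. Per kilobase (kb) of exon, Glul was the highest with a mean of 13299 normalized counts over 60 libraries, followed by Slc1a2 with 6832, Aldoc with 5646 and Slc1a3 with 2246. A middle set held Gfap with 859 per kb, Aqp4 with 617, Gjb6 with 534, Gja1 with 498 and Aldh1l1 with 367. Sox9 was the lowest, with 121 per kb. Sox9 was still counted by at least 261 reads in every library, the smallest count of any member. Exons of Slc1a2, Aldh1l1 and Glul overlap antisense genes (Gm13872, Gm15756 and Teddm2) by 189, 499 and 116 bases, and whether the counting used strand is not given in the sources used here. Exons of Aldh1l1 and Glul also overlap genes of the same strand (Gm45901 and Mir8114) by 105 and 93 bases, which strand would not separate.

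**Figure D1:**
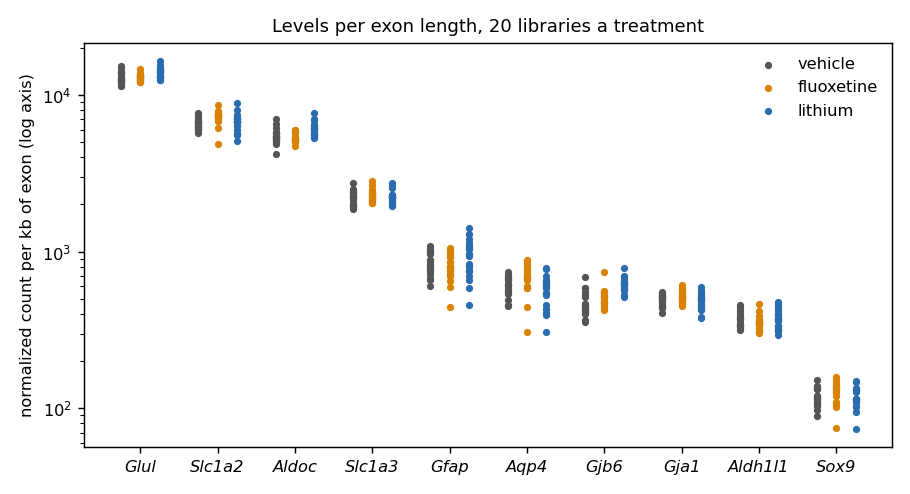
Levels of the 10 astrocyte genes in each library, as normalized counts per kb of exon on a log axis, with 20 points for each treatment. Glul lies highest (mean 13299 per kb), Sox9 lowest (mean 121), and the points of Gfap and Aqp4 are spread the most along the axis.

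Among the 12 groups the means of a member differed by at most 1.52 times. The mean of the highest group was 1.17 times that of the lowest for Slc1a3 and Gja1, 1.19 times for Glul and, at most, 1.52 times for Aqp4 and 1.51 times for Gjb6. When the groups were put in order of their means, all 11 pairs of neighbours lay within the larger of their SDs for 9 members, and 10 of 11 for Glul. Neighbours in such an order lie close by construction, so this does not show that the groups were alike. On the log2 scale the SD of the 12 group means was 0.19 for Gjb6, where the spread within groups alone would give 0.085. For Slc1a3 these values were 0.064 and 0.059. HT vehicle males had the lowest mean of the 12 groups for Glul, Aldoc, Slc1a3 and Gjb6. WT lithium males had the lowest mean for Gfap, Aqp4, Gja1 and Sox9. HT fluoxetine females had the highest mean for Slc1a2, Slc1a3, Aqp4 and Gja1. For Gjb6 the 4 lithium groups took the top 4 places, with means from 1604 in WT females to 1694 normalized counts in HT males, above 1453 in HT fluoxetine males. For Slc1a3 the means ran from 17414 to 20397, for Gfap from 3086 to 4299.7 and for Aqp4 from 3035 to 4628.

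Lithium was set against vehicle first. Of the 10 members, Gjb6, Aldoc and Glul rose and none fell when both genotypes and sexes were averaged, against 22.6% of all genes tested that were called in either direction and 11.4% called higher. Gjb6 rose by 33.1%, Aldoc by 10.7% and Glul by 7.58%. The median log2 fold change of the 10 members was 0.03, beside -0.0018 for all genes. Here and below a gene is called to rise or fall at a Benjamini-Hochberg adjusted p under 0.05 in limma over all 17804 genes of that comparison. Within HT the same 3 genes were called, beside 14.6% of all genes (7.44% higher), and within WT Gjb6 alone, beside 4.57% (2.46% higher).

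Gjb6 encodes Cx30, the astrocyte connexin that appears late in postnatal development (ENSMUSG00000040055, GRCm38 chromosome 14, 57123303 to 57133611, minus strand). Gja1 encodes Cx43, which astrocytes hold throughout development (ENSMUSG00000050953, GRCm38 chromosome 10, 56377330 to 56402513, plus strand). The 250 bases before the RefSeq start of each gene are shown, because lithium libraries were called higher in Gjb6 and were not called in Gja1. Capitals mark E-boxes (CANNTG, either strand), the sites of basic helix-loop-helix factors.
Gjb6 (GRCm38.p6, chr14:57133612-57133861, minus strand): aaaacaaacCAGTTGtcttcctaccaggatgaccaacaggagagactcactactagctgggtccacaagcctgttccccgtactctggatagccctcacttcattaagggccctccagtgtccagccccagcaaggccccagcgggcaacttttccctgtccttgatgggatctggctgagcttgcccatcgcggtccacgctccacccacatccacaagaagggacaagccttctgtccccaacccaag
Gja1 (GRCm38.p6, chr10:56377050-56377299, plus strand): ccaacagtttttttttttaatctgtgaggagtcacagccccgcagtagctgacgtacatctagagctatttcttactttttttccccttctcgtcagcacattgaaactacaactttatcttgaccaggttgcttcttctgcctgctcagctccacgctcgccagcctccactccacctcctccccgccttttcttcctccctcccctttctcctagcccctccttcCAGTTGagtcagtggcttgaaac
Each window held 1 E-box, with the same letters in both, beginning at base -241 from the start in Gjb6 and at base -23 in Gja1. An E-box is common: 66.2% of 32851 promoter windows of this length held one. Neither window held a GC box (GGGCGG, in 32.7% of windows), a TATA box (TATAAA, in 12.4%), a CCAAT box (CCAAT, in 33.8%), a STAT site (TTCNNNGAA, in 7.02%), a SOX site (AACAATG, in 3.29%) or a cAMP response element (TGACGTCA, in 1.55%), searched on both strands. Nor did either hold an NFI arm (TTGGCA, in 12.3%) or a glucocorticoid receptor hexamer (AGAACA, in 16.1%). These matches describe letters only.

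In HT males Gjb6 had 1194, 1122, 1152, 952 and 1204 normalized counts in the 5 vehicle libraries and 1620.2, 1677, 1797, 1659 and 1715 under lithium. Every lithium library lay above every vehicle library. The Gjb6 log2 fold change was 0.59 ± 0.12 (SE, 5 of 5 libraries higher, limma adjusted p = 0.00046), where libraries are counted against the mean of the control group of their own sex and genotype.

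WT males had 1245, 1200.5, 1071, 1157 and 1482 normalized counts of Gjb6 under vehicle and 1630.1, 1529, 1570.2, 1865 and 1708 under lithium, again with no overlap. Their Gjb6 log2 fold change was 0.44 ± 0.12 (SE, 5 of 5 libraries higher, limma adjusted p = 0.036). In HT males 3 of the 10 members (Gjb6, Aldoc and Glul) and in WT males 2 (Gjb6 and Aldoc) were higher in every lithium library than in every vehicle library, beside 3.82% and 3.18% of all genes. By limma, the same 3 members in HT males and Gjb6 in WT males were called higher, beside 6.61% and 0.972%.

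In females the groups overlapped. HT females had 979, 1209.9, 1420.0, 1379 and 1568 normalized counts of Gjb6 under vehicle and 2106, 1583, 1419, 1683 and 1626 under lithium. WT females had 1237, 1562, 1841, 1109 and 1089 under vehicle and 1564, 1373, 1810.4, 1744 and 1529.9 under lithium. Among the WT females the highest library of both groups was vehicle library 3, and vehicle library 2 lay within the lithium range. Neither female difference passed the test: the Gjb6 log2 fold change was 0.37 ± 0.12 (SE, 5 of 5 libraries higher, limma adjusted p = 0.098) in HT and 0.25 ± 0.12 (SE, 5 of 5 libraries higher, limma adjusted p = 0.29) in WT.

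With the sexes averaged, the Gjb6 rise was 0.48 ± 0.08 (SE, 10 of 10 libraries higher, limma adjusted p = 4.8e-05) in HT and 0.35 ± 0.08 (SE, 10 of 10 libraries higher, limma adjusted p = 0.0077) in WT on the log2 scale. Over both genotypes it was 0.41 ± 0.06 (SE, 20 of 20 libraries higher, limma adjusted p = 4.9e-07). The difference between the genotypes' responses was 0.13 ± 0.12 (SE, limma adjusted p = 0.94) and that of males minus females 0.21 ± 0.12 (adjusted p = 0.56), so neither was shown to differ. The difference of the sexes is also confounded with depth. The calls in HT, in WT and over both genotypes held under all 18 alternative settings and with any 1 library left out. With scores of olfactory bulb and striatal markers as covariates, the HT value was 0.38, adjusted p = 0.0075. A score is the mean over its markers of the log2 values, each centred on the gene's own mean.

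Gja1, the other connexin, did not pass the test for lithium against vehicle in any comparison. HT males had 5404, 4136, 4628, 4584 and 5104 normalized counts of Gja1 under vehicle and 5138, 4972, 4733, 3875 and 5181 under lithium. WT males had 5257, 5130.3, 5157, 4979 and 5503 under vehicle and 5016, 4339, 4572, 4444 and 5355 under lithium. These groups overlapped in both genotypes. Over both genotypes and sexes the Gja1 log2 fold change was -0.03 ± 0.04 (SE, 10 of 20 libraries lower, limma adjusted p = 0.62), with a 95% confidence interval of -0.12 to 0.05, while that of Gjb6 was 0.30 to 0.53.

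The reads of Gjb6 as a percentage of those of Gja1, a ratio picked after the values had been seen, had a mean of 23.7% (range 20.8 to 27.1%) in HT vehicle males and 35.8% (range 31.5 to 42.8%) in HT lithium males. In WT males it was 23.6% (range 20.8 to 26.9%) under vehicle and 35.2% (range 31.9 to 42%) under lithium. In HT females it was 26.1% (range 21.3 to 28.1%) and 32.9% (range 30.8 to 35.9%), and in WT females 26.1% (range 21.1 to 32.5%) and 31.6% (range 23.8 to 39%), in the same order. Under fluoxetine the 4 group means of this percentage lay between 23.7 and 28.4%. The percentage is of reads, not per length. Because the ratio was picked on these values, its tests are no independent support: lithium minus vehicle on the log2 scale was 0.45 over both genotypes and sexes (19 of 20 libraries higher, permutation p = 1e-05, two-sided, the smallest that 100000 resamples give). Within 1 sex and genotype, two-sided exact permutation tests, adjusted over 8 drug comparisons, gave p = 0.021 in HT females, HT males and WT males and p = 0.19 in WT females, where the differences were 0.34, 0.59, 0.57 and 0.28 in this order. For fluoxetine over both genotypes and sexes the difference was 0.05 (9 of 20 libraries higher, permutation p = 0.4).

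**Figure D2:**
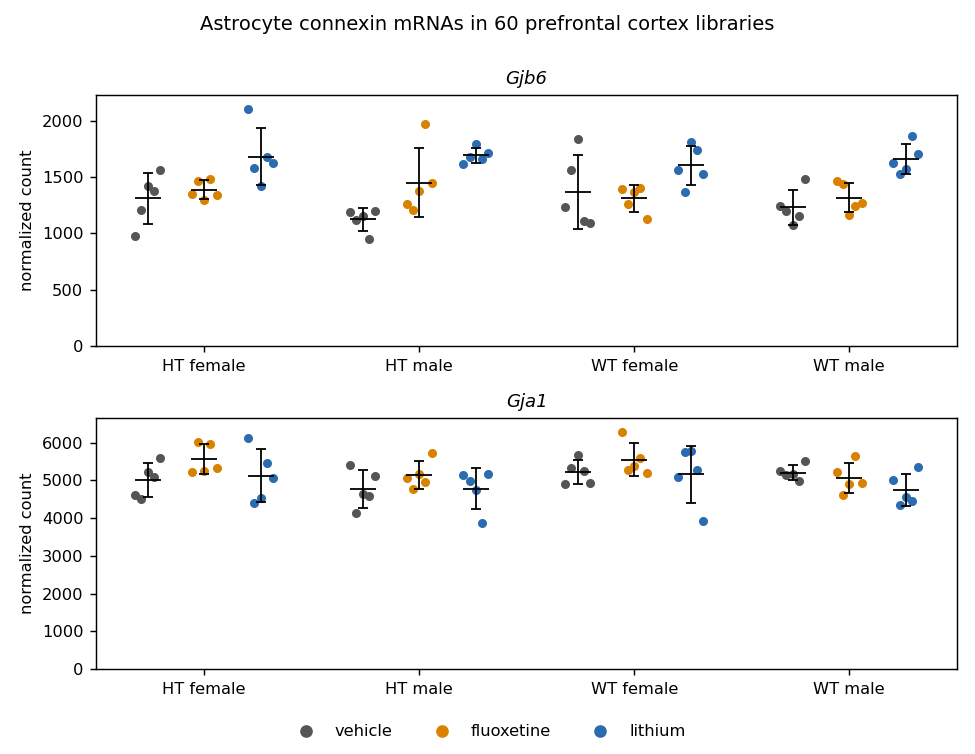
Normalized counts of the connexin genes Gjb6 (upper panel) and Gja1 (lower panel) in each library, grouped by genotype and sex, with the mean and SD of 5 libraries as black marks. In males of both genotypes all lithium points of Gjb6 lie above all vehicle points, whereas the Gja1 points of the 3 treatments overlap in every arm.

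Glul (glutamine synthetase, ENSMUSG00000026473, chromosome 1, 153899944 to 153909723, plus strand) rose with lithium most clearly in HT males. These had 41486, 37705, 39483, 37943 and 41581 normalized counts under vehicle and 47561, 49303, 47280.4, 43611 and 47358 under lithium, with no overlap. The Glul log2 fold change was 0.25 ± 0.06 (SE, 5 of 5 libraries higher, limma adjusted p = 0.0039) in HT males and 0.03 ± 0.06 (SE, 3 of 5 libraries higher, limma adjusted p = 0.85) in WT males.

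In HT females Glul was 45648 ± 3610.3 (SD, n = 5) under vehicle and 46842 ± 5087 (SD, n = 5) under lithium, and in WT females 43873 ± 4000.0 (SD, n = 5) and 47322 ± 3248 (SD, n = 5). With the sexes averaged it was 0.14 ± 0.04 (SE, 8 of 10 libraries higher, limma adjusted p = 0.017) in HT, 0.07 ± 0.04 (SE, 7 of 10 libraries higher, limma adjusted p = 0.37) in WT and 0.11 ± 0.03 (SE, 15 of 20 libraries higher, limma adjusted p = 0.0066) over both. HT vehicle males, the reference of the largest response, had the lowest Glul of all 12 groups, and against WT vehicle males their difference was -0.12 ± 0.06 (SE, 5 of 5 libraries lower, limma adjusted p = 0.53). Without HT lithium female 1 the HT call was lost (adjusted p = 0.057).

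Aldoc encodes aldolase C, the brain form of the glycolytic enzyme (ENSMUSG00000017390, chromosome 11, 78322968 to 78327781, plus strand). HT males had 13763, 17510.2, 17410.3, 16762 and 17409 normalized counts of Aldoc under vehicle and 18363, 22465, 20152, 22996 and 20591 under lithium, and WT males 17938, 17786, 15940.1, 16405 and 17775 and 18066, 19628, 20727, 18131 and 19789. In both, the lithium libraries lay above the vehicle libraries, by a narrow margin in WT. The Aldoc log2 fold change was 0.34 ± 0.08 (SE, 5 of 5 libraries higher, limma adjusted p = 0.0033) in HT males and 0.17 ± 0.08 (SE, 5 of 5 libraries higher, limma adjusted p = 0.27) in WT males.

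In females the means of Aldoc were 19542 ± 1959.7 (SD, n = 5) under vehicle and 19493 ± 3319 (SD, n = 5) under lithium in HT, and 18392 ± 2017 (SD, n = 5) and 19568 ± 1047 (SD, n = 5) in WT. Averaged over sexes the difference was 0.16 ± 0.06 (SE, 7 of 10 libraries higher, limma adjusted p = 0.041) in HT, 0.13 ± 0.06 (SE, 10 of 10 libraries higher, limma adjusted p = 0.18) in WT and 0.15 ± 0.04 (SE, 17 of 20 libraries higher, limma adjusted p = 0.0048) over both. The HT call was lost with any 1 of 10 of the 20 libraries left out (HT lithium female 1 and 5, HT lithium male 2 and 4, HT vehicle female 1, 2, 3 and 4 and HT vehicle male 1 and 4), where adjusted p reached 0.14. The Aldoc and Glul calls over both genotypes held with any 1 library left out, but not with sequencing depth as a covariate (adjusted p = 0.099 and 0.095). Lithium females had 32.1 to 35.9 M reads and lithium males 25.1 to 33.5 M.

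Within HT, 14 of the 17 striatal markers also fell with lithium, beside 7.14% of all genes called lower. The striatal sum was highest in a vehicle library. With olfactory bulb and striatal scores as covariates, the HT calls of Aldoc (0.16, adjusted p = 0.1) and Glul (0.12, adjusted p = 0.1) were lost. Over both genotypes both calls held with these covariates.

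The other members did not pass the test for lithium in HT, in WT or over both. Over both genotypes and sexes, the log2 fold change was 0.03 ± 0.05 (SE) for Slc1a2, 0.03 ± 0.04 for Slc1a3, 0.01 ± 0.05 for Aldh1l1 and -0.01 ± 0.06 for Sox9. The 2 transporters and Aldh1l1 had 95% confidence intervals of -0.07 to 0.13, -0.06 to 0.11 and -0.09 to 0.11. For Gfap it was 0.09 ± 0.09, with the interval -0.09 to 0.28, and for Aqp4 -0.10 ± 0.09, with -0.28 to 0.09, the widest intervals of the 10.

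**Figure D3:**
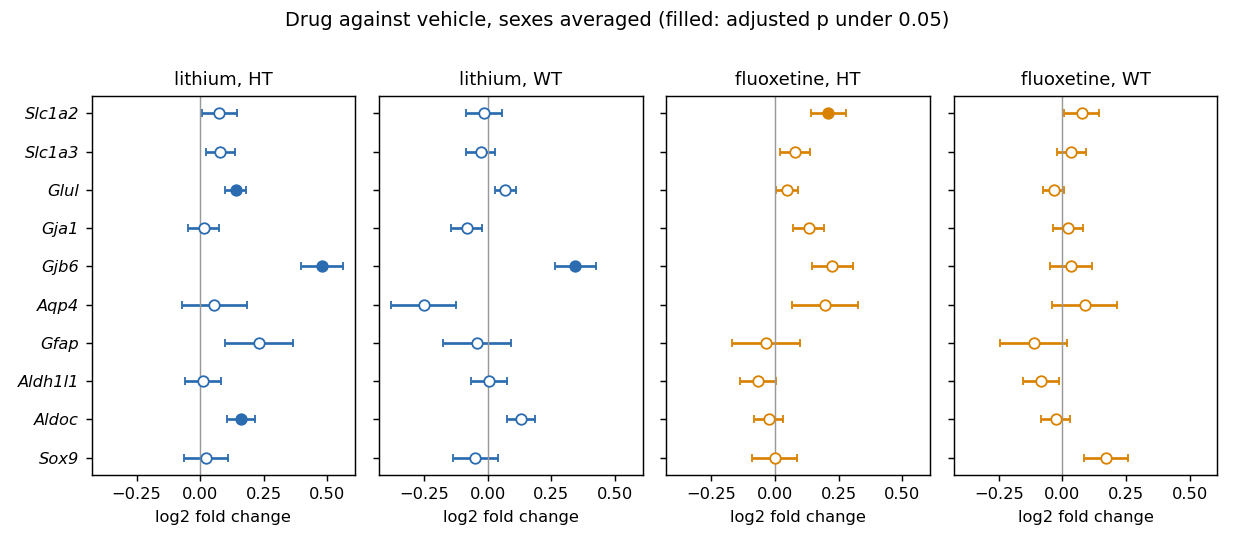
Log2 fold change (x axis, with 1 SE) of each member for lithium and fluoxetine against vehicle in HT and WT mice, sexes averaged; filled points passed an adjusted p of 0.05. Gjb6 stands at 0.48 and 0.35 under lithium. The Slc1a2 point under fluoxetine in HT (0.21) is -0.01 with quantile normalization, which sets values by rank and can hide a change of so high a gene.

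Fluoxetine was set against the same vehicle libraries, so its values are not independent of those of lithium. Slc1a2 was the 1 member of 10 that was called, higher in HT and over both genotypes, a call lost with quantile normalization. Beside it, 10.2% and 14.5% of all genes were called in either direction and 4.7% and 6.71% higher. In WT limma called 0 of 10 members (0 at an unadjusted p under 0.05, 0 with edgeR and 0 with DESeq2), beside 0.208% of all genes. The median log2 fold change of the members was 0.06 in HT, 0.03 in WT and 0.07 over both, beside -0.0036, -0.0025 and -0.0034 for all genes.

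Slc1a2 encodes GLT1, which takes up most of the glutamate released in the forebrain (ENSMUSG00000005089, chromosome 2, 102658659 to 102790784, plus strand). HT females had 79984, 88409, 74676, 79202 and 100983 normalized counts under vehicle and 95189.8, 104089, 96555, 113196 and 89803 under fluoxetine, and HT males 81756, 86059, 83581, 89478 and 84984 and 102741, 100018, 95206, 94667 and 89857. In HT males the fluoxetine libraries lay just above the vehicle libraries, and in HT females the groups overlapped. In HT males 2 of 10 members (Slc1a2 and Gjb6) were higher in every fluoxetine library, beside 1.11% of all genes.

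WT females had a Slc1a2 mean of 88325 ± 6039 (SD, n = 5) under vehicle and 96447 ± 2847 (SD, n = 5) under fluoxetine, and WT males 85352 ± 6832 (SD, n = 5) and 87643 ± 15266 (SD, n = 5). Of the WT fluoxetine males, library 2 had 63849.5 and the others 80841 to 99043. Library 2 was 1 of 2 libraries that stood apart and were left out together in an alternative setting, the other being HT vehicle male 1. A library's slope of expression on gene length reached down to -0.20 among WT fluoxetine males, and no lower than -0.065 in any other group. The Slc1a2 log2 fold change was 0.21 ± 0.07 (SE, 10 of 10 libraries higher, limma adjusted p = 0.042) in HT, 0.08 ± 0.07 (SE, 8 of 10 libraries higher, limma adjusted p = 0.75) in WT and 0.14 ± 0.05 (SE, 18 of 20 libraries higher, limma adjusted p = 0.042) over both. With quantile normalization it was -0.01, adjusted p = 0.94 in HT and -0.03, adjusted p = 0.62 over both. That setting gives each gene a value by its rank in the library, and Slc1a2 lay at the 99.9th percentile of tested genes by mean. It can therefore hide a change of Slc1a2, and does not decide whether the gene moved.

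The Slc1a2 call in HT was lost with any 1 of 13 of the 20 libraries left out (HT fluoxetine female 2, 3 and 4, HT fluoxetine male 1, 2, 3 and 4, HT vehicle female 1, 3 and 4 and HT vehicle male 2, 3 and 5), with adjusted p up to 0.095. Over both genotypes it was lost with any 1 of 18 of the 40 left out (HT fluoxetine female 2 and 4, HT fluoxetine male 1 and 2, HT vehicle female 1, 3 and 4, HT vehicle male 3 and 5, WT fluoxetine female 2 and 3, WT fluoxetine male 1, 3 and 5, WT vehicle female 4 and WT vehicle male 3, 4 and 5), with adjusted p up to 0.073. With depth as a covariate the HT value was 0.19, adjusted p = 0.26, and every fluoxetine library was deeper than every vehicle library.

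Gjb6 under fluoxetine in HT had a log2 fold change of 0.23 ± 0.08 (SE, 10 of 10 libraries higher, limma adjusted p = 0.067), and in WT 0.03 ± 0.08 (SE, 7 of 10 libraries higher, limma adjusted p = 0.93). HT fluoxetine males had 1262, 1207, 1378, 1969.8 and 1445 normalized counts of Gjb6, with library 4 far above the rest. That library had the lowest Gfap (1880.4) and Aqp4 (1907) of all 60. Gja1 in HT was 0.13 ± 0.06 (SE, 10 of 10 libraries higher, limma adjusted p = 0.16), Slc1a3 0.08 ± 0.06 (SE, 7 of 10 libraries higher, limma adjusted p = 0.43) and Aqp4 0.20 ± 0.13 (SE, 8 of 10 libraries higher, limma adjusted p = 0.36). Glul (0.05, adjusted p = 0.52), Gfap (-0.03, adjusted p = 0.91), Aldh1l1 (-0.07, adjusted p = 0.6), Aldoc (-0.02, adjusted p = 0.84) and Sox9 (-0.0017, adjusted p = 0.99) were not called.

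**Figure D4:**
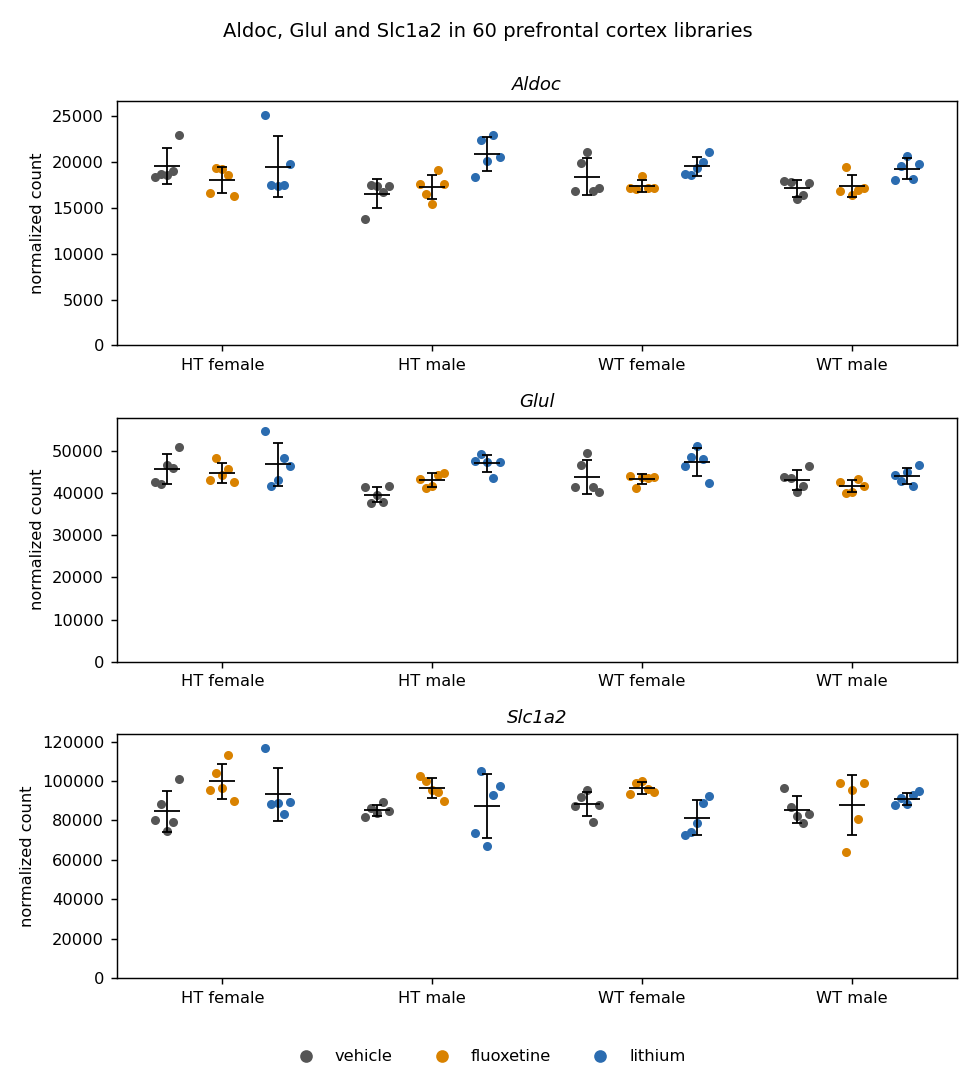
Normalized counts of Aldoc, Glul and Slc1a2 in each library, grouped by genotype and sex, with the mean and SD of 5 libraries as black marks. The lithium points of Aldoc and Glul are clear of the vehicle points in HT males, and 1 WT fluoxetine male lies at 63849.5 in the Slc1a2 panel.

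The drugs were then set against each other. Vehicle libraries enter no mean of this comparison, but its variances come from the fit to all 60 libraries. Over both genotypes 5 of the 10 members were called, Gjb6, Aldoc and Glul lower with fluoxetine than with lithium and Aqp4 and Gja1 higher, beside 32.9% of all genes (16.9% lower and 16% higher). The Gjb6 difference (fluoxetine minus lithium, log2) was -0.28 ± 0.06 (SE, 19 of 20 libraries lower, limma adjusted p = 0.00013), that of Aldoc -0.17 ± 0.04 (SE, 18 of 20 libraries lower, limma adjusted p = 0.00055) and that of Glul -0.10 ± 0.03 (SE, 19 of 20 libraries lower, limma adjusted p = 0.0073). For Aqp4 it was 0.24 ± 0.09 (SE, 17 of 20 libraries higher, limma adjusted p = 0.037) and for Gja1 0.11 ± 0.04 (SE, 19 of 20 libraries higher, limma adjusted p = 0.039).

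The 2 connexins stood on opposite sides in this comparison. Gjb6 was also called in HT (-0.25, adjusted p = 0.018, beside 24.8% of all genes, 12.6% lower) and in WT (-0.31, adjusted p = 0.01, beside 9.76%, 5.41% lower), and Aldoc in HT (-0.19, adjusted p = 0.01). The HT call of Gjb6 was lost without HT lithium female 1 (adjusted p = 0.055) and with oligodendrocyte and neuron scores as covariates (-0.13, adjusted p = 0.28). With each library's slope of expression on gene length as a covariate, both HT calls were lost (Gjb6 -0.21, adjusted p = 0.086; Aldoc -0.09, adjusted p = 0.19). The Aqp4 call was lost with any 1 of 14 of the 40 libraries left out (HT fluoxetine female 2 and 4, HT fluoxetine male 1, 2, 3 and 5, HT lithium female 2, HT lithium male 4, WT fluoxetine female 1, WT fluoxetine male 1 and 4, WT lithium female 5 and WT lithium male 2 and 4), with adjusted p up to 0.077. The Gja1 call was lost with any 1 of 13 of the 40 (HT fluoxetine female 2 and 4, HT fluoxetine male 5, HT lithium female 2 and 3, HT lithium male 4, WT fluoxetine female 1, WT fluoxetine male 1 and 4, WT lithium female 5 and WT lithium male 2, 3 and 4), with adjusted p up to 0.082. Of 16 endothelial and mural markers, 8 were higher and 1 lower with fluoxetine than with lithium. Of all genes, 16% were called higher and 16.9% lower over both genotypes. With endothelial and meningeal scores as covariates Aqp4 was 0.12, adjusted p = 0.19 and Gja1 0.04, adjusted p = 0.39.

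Between the genotypes limma called 0 of 10 members under vehicle, fluoxetine or lithium, or over all treatments, and edgeR and DESeq2 also called 0. At an unadjusted p under 0.05 there were 0 members under vehicle, 0 under fluoxetine, 1 under lithium and 1 over all treatments, in the last 2 cases Sox9. The share of all genes called was 0.152% under vehicle, 0.135% under fluoxetine, 0.573% under lithium and 5.06% over all treatments. The median log2 fold change of the members, HT minus WT, was -0.04 under vehicle, 0.03 under fluoxetine and 0.05 under lithium.

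Sox9, a factor needed for astrocyte fate (ENSMUSG00000000567, chromosome 11, 112782224 to 112787760, plus strand), had the largest genotype difference over all treatments, 0.13 ± 0.05 (SE, 25 of 30 libraries higher, limma adjusted p = 0.12). In vehicle females Sox9 was 568, 453, 563, 574 and 631 in HT and 440.0, 473, 549.9, 495 and 479.6 in WT, and in lithium females 605, 538, 559.6, 545 and 621 and 420.0, 473, 528, 474 and 539.6. The groups overlapped under vehicle, and under lithium only in that the lowest HT library (538) lay under the highest WT library (539.6). Under lithium, with sexes averaged, the Sox9 difference was 0.24 ± 0.09 (SE, 10 of 10 libraries higher, limma adjusted p = 0.2). Gfap, under lithium, had 0.23 ± 0.13 (SE, 7 of 10 libraries higher, limma adjusted p = 0.47) and Aqp4 0.23 ± 0.13 (SE, 8 of 10 libraries higher, limma adjusted p = 0.44).

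The 4 interactions of drug with genotype or sex called 0 of 10 members in limma, edgeR and DESeq2. At an unadjusted p under 0.05 there were 0 members for genotype by fluoxetine, 0 for genotype by lithium, 1 for sex by fluoxetine and 2 for sex by lithium. Of all genes, 0% and 0% were called for the genotype interactions and 0.0112% for each sex interaction. The lowest p was that of Aldh1l1, a folate enzyme (ENSMUSG00000030088, chromosome 6, 90486427 to 90600203, plus strand), whose lithium response in males minus that in females was 0.31 ± 0.10 (SE, limma adjusted p = 0.4). This difference is confounded with depth, which was higher in lithium than in vehicle libraries in females and overlapped in males. Aldh1l1 had 1637 ± 169 (SD, n = 5) normalized counts in WT vehicle males and 1804 ± 167 (SD, n = 5) in WT lithium males, against 1759 ± 264 (SD, n = 5) and 1598 ± 75 (SD, n = 5) in WT females. The log2 fold change of Aldh1l1 was -0.16 in HT females, 0.18 in HT males, -0.13 in WT females and 0.14 in WT males.

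Males and females did not differ by limma in any member (0 of 10, 4 at an unadjusted p under 0.05, 0 with edgeR), beside 1.19% of all genes, while DESeq2 called Sox9 and Glul. Sox9 in males minus females was -0.17 ± 0.05 (SE, 24 of 30 libraries lower, limma adjusted p = 0.069), Glul -0.07 ± 0.02 (SE, 22 of 30 libraries lower, limma adjusted p = 0.1) and Aqp4 -0.17 ± 0.07 (SE, 22 of 30 libraries lower, limma adjusted p = 0.18). The median over the 10 members was -0.07, and 9 of the 10 had a lower mean in males, Aldh1l1 being the exception.

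How far the members moved together from library to library was described by the correlation of their deviations from the group means, on the log2 scale over 60 libraries. All such correlations share the libraries and their normalization. Over the 45 pairs Pearson's r ran from -0.33 (Gfap with Slc1a2) to 0.84 (Gfap with Aqp4), with a median of 0.33, and 9 pairs were negative. The 10 genes thus did not vary as 1 block.

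Gfap, Aqp4 and Gja1 formed a tight set, with r of 0.84 for Gfap with Aqp4, 0.79 for Aqp4 with Gja1 and 0.76 for Gfap with Gja1. Glul followed Gja1 (r = 0.83) and of all members lay closest to the mean of the others (r = 0.91). Aldoc and Aldh1l1 went together (r = 0.71). Both were also lower in libraries with a higher slope of expression on gene length (r = -0.54 and -0.55). For the other members r with this slope ran from -0.19 (Gjb6) to 0.38 (Sox9). The part of the slope in the likeness of Aldoc and Aldh1l1 was not tested. Gjb6 was closest to Glul (r = 0.68), with 0.54 to Aldh1l1, 0.53 to Aldoc, 0.42 to Gja1 and 0.12 to Gfap. Glul had 0.51 with Aldoc and 0.36 with Aldh1l1. The value was -0.25 for Aqp4 with Aldoc, -0.10 for Gfap with Aldoc and -0.0017 for Aqp4 with Gjb6. Sox9 was the least like the mean of the others (r = 0.12).

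**Figure D5:**
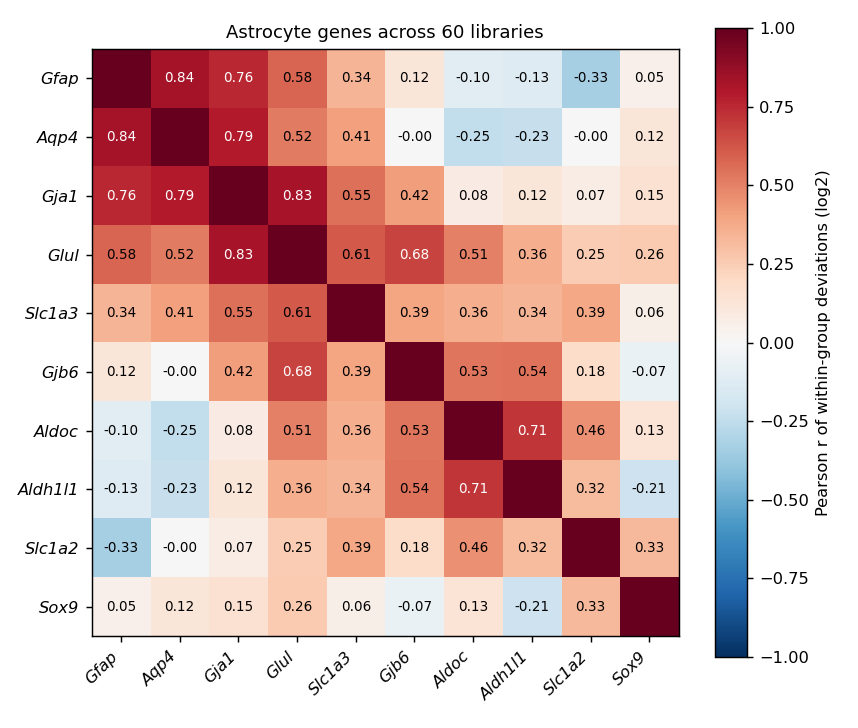
Pearson correlation of within-group deviations (log2) for each pair of the 10 members over 60 libraries, from -1 (blue) to 1 (red). Gfap, Aqp4, Gja1 and Glul are all positive with each other, Glul has its next highest value with Gjb6 (0.68), Aldoc and Aldh1l1 stand at 0.71, and Gfap and Slc1a2 have the lowest value at -0.33.

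Gfap and Aqp4 were also the members that varied most within a group, with SDs of 0.31 and 0.30 on the log2 scale, against 0.089 for Glul. HT fluoxetine male 4, with 1880.4 Gfap and 1907 Aqp4 normalized counts, and WT lithium female 5, with 1914 and 1922, were low in both. The other WT lithium females had 4367 to 5478 Gfap. Without these 2 libraries, left out after their values had been seen, Aqp4 under fluoxetine over both genotypes was 0.20, adjusted p = 0.04, against 0.14, adjusted p = 0.31 with them, and Gfap in fluoxetine minus lithium was -0.19, adjusted p = 0.045, against -0.17, adjusted p = 0.17.

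Marker scores of other cell types varied with many members, and which members depended on the cell type. The endothelial and mural score had r of 0.72 with Gja1, 0.70 with Aqp4 and 0.68 with Gfap, and the meningeal fibroblast score 0.72 with Gfap and 0.68 with Aqp4. The neuron score had -0.74 with Gja1 and -0.68 with Gfap. With the endothelial and the neuron score, in this order, Glul had 0.67 and -0.68 and Slc1a3 0.52 and -0.65. With these 2 scores values were weaker for Gjb6 (0.42 and -0.39), Aldoc (0.29 and -0.15), Aldh1l1 (0.28 and -0.22), Slc1a2 (0.19 and -0.03) and Sox9 (-0.04 and -0.02). The microglia score had 0.66 with Glul, 0.61 with Aldoc, 0.54 with Slc1a3, 0.53 with Slc1a2 and 0.50 with Gjb6. With Gja1 and Aldh1l1 it had 0.46, with Aqp4 0.35, with Gfap 0.28 and with Sox9 -0.02. The oligodendrocyte precursor score ran from 0.70 with Glul and 0.69 with Gja1 to 0.09 with Sox9. The olfactory bulb score had -0.63 with Slc1a2, -0.42 with Aldoc and -0.35 with Aldh1l1, but 0.64 with Gfap, 0.48 with Aqp4 and 0.41 with Gja1. The 16 endothelial and mural markers summed to 14117 to 20542 in vehicle, 13724 to 21158 in fluoxetine and 13517 to 21160 in lithium libraries, and the part of these cells in the members' values was not tested.

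Among all other genes averaging 50 or more normalized counts, those most like the mean of the 10 members included Mlc1 (r = 0.83), an astrocyte endfoot membrane protein, followed by Axl, Rassf2, Adam17, Timp3, Zcchc24, Itprid2, Acsbg1 and Lrp4, down to 0.76 for Lrp4. The lowest were Atp6v1a (-0.82), Nap1l2, Zfyve9, Ptprn2 and Copa (-0.80).

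The 3 nearest genes were found for each member alone, and Mt1 was among those of both Aldoc and Aldh1l1. Gfap was most like Cd63 (r = 0.89), Slc13a3 and the filament gene Vim, and Aqp4 like the endothelin receptor Ednrb (0.91), Nid1 and Igfbp2. Slc1a2 was nearest to Clmn (0.87), Prex2 and the glutamate receptor Grm3, and Slc1a3 to Luzp2 (0.83), Hapln1 and Acss1. Gja1 was nearest to Rassf2 (0.83), Itprid2 and Adam17, and Gjb6 to the proteoglycan Sdc4 (0.77), Mfsd2a and Rin2. Aldoc was nearest to Ttyh1 (0.89), Ndrg2 and the metallothionein Mt1, Aldh1l1 to Mt1 (0.80), Chst2 and Mt2. Near Glul lay Paqr8 (0.78) and Hepacam, and near Sox9 lay Hipk2 (0.63) and Sp1.

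Other genes of the same functions were read from lists, to be set against the 11.4% of all genes called higher and 11.2% called lower under lithium. Under lithium, over both genotypes, 4 of 16 genes of amino acid transport and metabolism rose and 0 fell, with a median log2 fold change of -0.03. Gpt2, the alanine aminotransferase of mitochondria, was 0.30 ± 0.03 (SE, 20 of 20 libraries higher, limma adjusted p = 2.4e-09), Slc1a4, a neutral amino acid transporter, 0.12 ± 0.03 (SE, 16 of 20 libraries higher, limma adjusted p = 0.0085), and Cbs, of homocysteine metabolism, 0.15 ± 0.05 (SE, 15 of 20 libraries higher, limma adjusted p = 0.038). Of 15 genes of junctions, water and ion transport, 3 rose and 0 fell, with a median of 0.06, among them the cation channel Trpv4 (0.59 ± 0.08, adjusted p = 4.8e-07).

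Of 20 astrocyte metabolism genes 6 rose and 1 fell with lithium, with a median of 0.07, again beside 11.4% of all genes higher and 11.2% lower. The lipid droplet coat gene Plin4 was 1.38 ± 0.19 (SE, 20 of 20 libraries higher, limma adjusted p = 4.6e-07), the phospholyase Etnppl 0.74 ± 0.16 (SE, 18 of 20 libraries higher, limma adjusted p = 0.00053) and the glycogen phosphorylase Pygm 0.23 ± 0.05 (SE, 17 of 20 libraries higher, limma adjusted p = 0.0016), while Slc16a1, a monocarboxylate transporter, fell (-0.25 ± 0.05, adjusted p = 0.00048). Of 20 identity regulators 4 rose and 3 fell (median -0.02), among them Id1 (0.47 ± 0.07) and the receptor Fgfr3 (0.29 ± 0.05) upward and Rorb (-0.20 ± 0.05) and Nfix (-0.15 ± 0.04) downward. Of 9 filament and fibrous genes Serpina3n rose and Nes and Synm fell (median 0.02). Of 20 further astrocyte markers, Htra1 alone rose (0.25 ± 0.04) and 0 fell (median 0.01), and of 11 genes for synapse factors and phagocytosis 2 rose (Mertk, 0.33 ± 0.05, and Chrdl1, 0.16 ± 0.05) and Thbs1 fell (-0.42 ± 0.11), with a median of 0.05.

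Genes used as markers of reactive astrocytes were read against the same shares, 11.4% of all genes higher and 11.2% lower. Of 12 pan-reactive genes 4 rose and 0 fell with lithium (median 0.14): Hspb1 (0.70 ± 0.10), Lcn2 (1.25 ± 0.26), Serpina3n (0.29 ± 0.05) and Aspg (0.20 ± 0.07). Of 11 A1 genes 3 rose and 2 fell (median 0.04), led by Fkbp5 (0.77 ± 0.09), a gene also induced by glucocorticoids, and of 10 A2 genes tested 2 rose (median 0.04), Ptgs2 (0.39 ± 0.06) and Emp1 (0.35 ± 0.11). Vim, at 0.13, adjusted p = 0.16, was not called, nor was Gfap. Many of these genes are also made by other cells of cortex.

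Under fluoxetine, over both genotypes, the lists were read against the same vehicle libraries, beside 6.71% of all genes called higher and 7.78% lower: 1 up of 15 for junctions, water and ions (Trpv4, 0.30 ± 0.08) and 1 up and 2 down of 20 for metabolism (Plin4, 0.83 ± 0.19, and Mt3, -0.31 ± 0.08, and Pygb, -0.12 ± 0.03). Of 20 identity regulators 5 rose and 1 fell, with Id4 at 0.22 ± 0.05, Emx2 at 0.20 ± 0.05, Nfib at 0.15 ± 0.03 and Id3 at -0.23 ± 0.06. Of the filament and fibrous genes S100a6 fell (-0.29 ± 0.07) and Synm rose (0.13 ± 0.04). Of the genes for synapse factors and phagocytosis Mertk rose (0.23 ± 0.05). Of the reactive lists, 2 of 12 pan-reactive genes rose (Cp, 0.26 ± 0.07, and Osmr, 0.24 ± 0.07), 1 of 11 A1 genes rose (Fkbp5, 0.46 ± 0.09) and 1 fell (H2-D1, -0.20 ± 0.05), and 1 of 10 A2 genes rose (Ptgs2, 0.23 ± 0.06).

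Beside these stand the markers of other cells under lithium over both genotypes, where 11.4% of all genes were called higher and 11.2% lower. Of 12 oligodendrocyte genes 9 fell and 0 rose (median -0.33), among them the myelin genes Mag (-0.46 ± 0.12) and Opalin (-0.56 ± 0.12), and of 17 striatal genes 11 fell (median -0.35). Of 11 microglial genes 4 rose (C1qa, 0.18 ± 0.04), of 16 endothelial and mural genes 2 rose and 3 fell, and of 12 neuronal genes 1 rose and 2 fell. The summed oligodendrocyte markers ran from 74423 to 199379 in vehicle and from 57805 to 188750.2 in lithium libraries. With the oligodendrocyte and neuron scores as covariates Gjb6 under lithium was 0.36, adjusted p = 1e-05, Aldoc 0.20, adjusted p = 0.00017, and Glul 0.09, adjusted p = 0.0045.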

How the data were processed

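Messenger RNA of prefrontal cortex was sequenced from 60 mice (TruSeq Stranded kit, per the labels' protocols). The submitters' processing notes name Salmon 0.11.2, R 3.6.0, DESeq2 1.19.11 and GRCm38, without roles. The table deposited by the authors holds normalized counts, a signal equal to counts divided by a size factor per library (0.85 to 1.25): 100% of values gave whole reads within 0.01. Of the gene IDs, 18077 matched a symbol and 11 did not.

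Genes with at least 10 normalized counts in 5 or more libraries were kept (17804; 284 removed), values were put on the log2(value + 1) scale, and limma 3.58.1 (R 4.3.3) with an intensity trend was fitted to 12 group means over 60 libraries (48 residual degrees of freedom), as planned for values divided by size factors. Fold changes on this scale understate those of low genes. Adjusted p is Benjamini-Hochberg over all genes of a comparison. edgeR 4.0.16 (quasi-likelihood) and DESeq2 1.42.0 on the recovered reads were alternatives, among 18 settings and the omission of each library. The fit was tested on simulated data. No pair of libraries agreed within sampling noise (lowest chi-square per degree of freedom 5.83 over 1770.0 pairs). Replicate numbers did not pair samples. Depth was 25.1 to 36.6 M reads.

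The members and gene lists were chosen with earlier results of these data known. Members are named in all comparisons, other genes from the lists where called (some are not reported here), and likeness is the highest r of within-group deviations among genes averaging 50 or more normalized counts. Promoter windows are RefSeq's (GRCm38.p6).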

Additional observations from a re-analysis of the deposited data

Results flagged for a closer look

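In 8 of 120 sets of 5 libraries, 1 library stood far from the other 4 (gap over range above 0.71, which chance gives in about 1 of 20 sets). For Aldoc these were HT vehicle female 5, with 23023 normalized counts against 18349 to 18993 in the others, and HT vehicle male 1, with 13763 against 16762 to 17510.2. WT fluoxetine female 3 had 18520.0 Aldoc against 17029 to 17228, and WT fluoxetine male 2 had 19523 against 16458 to 17225. HT vehicle male 1 was also apart in Slc1a3, with 20547 against 15918 to 17058. HT vehicle male 1 and WT fluoxetine male 2 are the 2 libraries left out together below. Their groups held the highest (0.084) and the lowest (-0.20) slope of expression on gene length of any group. HT lithium female 1 had 116903 normalized counts of Slc1a2 against 83078 to 89493, HT lithium male 1 had 539.7 of Sox9 against 452 to 477, and WT fluoxetine female 2 had 41122 of Glul against 43507 to 44064.

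The Aldh1l1 response to lithium had opposite signs in the sexes within WT, with a log2 fold change of -0.13 in females and 0.14 in males, a difference of -0.27. This WT difference was not tested. Among WT females the lithium libraries had 33.9 to 35.9 M reads and the vehicle libraries 28.1 to 29.3 M, while in WT males the depths overlapped. In HT the signs were opposite too, with -0.16 in females and 0.18 in males. Averaged over genotypes, the sex by lithium interaction of Aldh1l1 had an adjusted p of 0.4 in limma.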

How the results depend on the processing

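The number of members called in each of 18 comparisons was recomputed under 18 alternatives, 3 of them chosen after seeing the data (oligodendrocyte and neuron scores, endothelial and meningeal scores, and the 2 libraries lowest in Gfap left out), and without each of 60 libraries. Counts within 1.5 times of those reported are not listed, and the causes of the shifts below were not tested. For fluoxetine in HT the count of 1 became 0 with quantile normalization, the depth covariate, olfactory bulb and striatum scores, and endothelial and meningeal scores, 2 with DESeq2, without the 2 libraries that stood apart (HT vehicle male 1 and WT fluoxetine male 2) or the 2 lowest in Gfap, 4 with array weights and 6 with oligodendrocyte and neuron scores. In WT it became 1 without the 2 libraries apart. Over both genotypes it became 0 with quantile normalization, the depth covariate, olfactory bulb and striatum scores, and the length slope, 2 with array weights or without the libraries lowest in Gfap, and 5 with oligodendrocyte and neuron scores. For lithium in HT the count of 3 became 1 with the depth covariate, olfactory bulb and striatum scores, and only the groups compared. In WT the count of 1 became 2 with oligodendrocyte and neuron scores and 3 with endothelial and meningeal scores, and over both genotypes 3 became 1 with the depth covariate. For fluoxetine against lithium in HT the count of 2 became 4 with endothelial and meningeal scores and 0 with the length slope. In WT the count of 1 became 2 with quantile normalization, only the groups compared or without the libraries lowest in Gfap, 3 with DESeq2, olfactory bulb and striatum scores or endothelial and meningeal scores, 4 without the libraries apart or with oligodendrocyte and neuron scores, and 6 with array weights. Over both, the count of 5 became 3 with quantile normalization, the depth covariate or only the groups compared, 2 with the length slope and 8 with array weights. HT against WT over all treatments became 1 with oligodendrocyte and neuron scores. Males against females became 1 without the libraries apart, 2 with DESeq2 and 5 with array weights. Leaving out 1 library gave 0 to 2 for fluoxetine in HT and over both, 1 to 3 for lithium in HT, 1 to 3, 1 to 4 and 3 to 7 for fluoxetine against lithium in HT, in WT and over both, and 0 to 2 for the sexes.

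With quantile normalization Slc1a2 under fluoxetine was -0.0091 in HT and -0.030 over both genotypes, but this setting can hide a change of so highly ranked a gene. A replicate block gave the same counts in all 18 comparisons (1 for fluoxetine and 3 for lithium in HT), but the numbers did not pair samples: libraries of the same number correlated at a mean r of 0.002, other pairs at -0.00064, and 10 of 60 were closest to their own number. Over all genes the calls for fluoxetine moved from 1824 to between 778 (depth covariate) and 3969 (array weights) in HT, from 37 to between 1 and 1105 in WT and from 2581 to between 491 and 5111 over both. Those for lithium moved from 2595 to between 1549 and 3279 in HT, from 814 to between 456 and 1442 in WT and from 4021 to between 2466 and 4582 over both, and those for sex from 211 to between 29 and 2698. Members with wide spread, Gfap and Aqp4, limit what could be detected.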
